A study of Mus musculus with 12 samples.

Results

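Interferon-stimulated genes, the transcripts that cells switch on when an interferon binds its receptor, were followed in gonadal white fat of male mice that lack Gadd45a, Ing1 or both. The set was a list of 41 genes given by symbol, and a gene was measured where the RefSeq accession of an array probe led to that symbol. By that rule 38 of the 41 genes had a probe, and Oas1b, Mx1 and Mx2 were not analysed here. The tests ran over 31454 genes or unnamed probes, 15955 of them named. All 38 measured genes passed the filter on dim probes and were well above background on all 12 arrays, so that none entered through 1 genotype alone.

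The 4 genotypes were wild type (WT), mice without Gadd45a (Gadd45a-KO), mice without Ing1 (Ing1-KO) and mice without both genes (DKO). Gadd45a is a stress-induced gene whose protein takes part in DNA repair and in the removal of DNA methylation. Ing1 codes for a tumour suppressor that recognises methylated histone H3. The animals were C57BL/6N males aged 59 to 67 days from crosses of both mutant lines, and their treatment did not differ by label. Each array held RNA pooled from 3 animals, so 3 arrays and 9 animals stand behind each genotype. Pooling hides the spread between single animals, and whole fat holds blood and connective tissue cells beside adipocytes.

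Interferons act through receptors on the cell surface that activate Janus kinases. Type I interferons act largely through the interferon-stimulated response element (ISRE) in promoters, which a complex with STAT2 and IRF9 binds, whereas interferon gamma acts largely through the gamma-activated site (GAS). The proteins made in response degrade foreign RNA, sense nucleic acids, recruit lymphocytes and feed back on the receptors. In fat, both adipocytes and resident macrophages and lymphocytes can respond.

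The promoters were searched for the sequences through which interferon-stimulated genes are known to answer interferon. RefSeq promoter windows of the GRCm38.p6 assembly, from 250 bases before to 50 after the annotated start, were found for 30 of the 41 listed genes. The core of the ISRE, searched as GAAA, any 2 bases and GAAA on both strands with overlaps counted, lay in a window of 17 of these 30 genes (56.7%), against 3.99% of 27025 genes with a window. The GAS, searched as TTC, any 3 bases and GAA, which reads the same on both strands, lay in a window of 7 of the 30 genes (23.3%), against 9.55% of all genes. A match is a description of the letters and not evidence of binding. Isg15 had the most ISRE matches, 3, and 6 genes had 2 each. Printed below are the 250 bases before the start of Isg15 and of the first 2 of these 6 by symbol, Bst2 and Gbp3, with the ISRE letters in capitals. Isg15 lies on the minus strand at chr4:156200819-156201068, Bst2 on the minus strand at chr8:71537473-71537722 and Gbp3 on the plus strand at chr3:142559794-142560043.
Isg15: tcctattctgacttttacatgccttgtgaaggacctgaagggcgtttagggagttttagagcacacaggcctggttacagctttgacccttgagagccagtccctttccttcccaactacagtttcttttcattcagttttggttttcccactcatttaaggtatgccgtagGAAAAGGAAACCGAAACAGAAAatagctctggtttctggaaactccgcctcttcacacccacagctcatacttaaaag
Bst2: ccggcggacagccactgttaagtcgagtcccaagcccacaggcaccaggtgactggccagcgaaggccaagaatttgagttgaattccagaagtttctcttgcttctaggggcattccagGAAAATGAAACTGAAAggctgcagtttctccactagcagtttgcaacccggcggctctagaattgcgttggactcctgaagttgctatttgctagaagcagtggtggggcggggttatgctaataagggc
Gbp3: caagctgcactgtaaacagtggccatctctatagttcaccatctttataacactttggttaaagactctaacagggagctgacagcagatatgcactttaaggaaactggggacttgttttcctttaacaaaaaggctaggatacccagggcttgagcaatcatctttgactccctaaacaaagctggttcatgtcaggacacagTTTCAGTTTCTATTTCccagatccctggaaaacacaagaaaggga
In Isg15 the 3 overlapping matches began 78, 72 and 66 bases before the start, in Bst2 the 2 matches began 130 and 124 bases before it, and in Gbp3 the 2 matches began 45 and 39 bases before it on the opposite strand.

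Median processed signal per array ran from 39.3 to 68.8 intensity units and 58.2% to 68.1% of the 59305 spots were well above background, WT 2 being lowest on both. All levels below are log2 processed signal after each array was shifted to a common 75th percentile, and they compare arrays for 1 probe, never genes with each other. The Ing1 transcript lay between 12.37 and 12.78 on the 6 WT and Gadd45a-KO arrays and between 9.13 and 9.60 on the 6 Ing1-KO and DKO arrays. The Gadd45a probe lay between 10.05 and 10.62 on the 6 arrays labelled as lacking Gadd45a and between 9.06 and 9.80 on the others, which is opposite to a loss of signal. Where that probe lies relative to the deleted part is not known, so it checks no label, and every direction given for Gadd45a-KO and DKO holds for arrays so labelled. The adipocyte transcript Adipoq was at 16.32 to 17.72, but with no other tissue on the arrays this does not check the tissue label.

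The arrays differed in these genes within genotypes as well as between them. Of the 38 genes, 36 on Ing1-KO 1 and 33 on Ing1-KO 2 lay above their own median over the 12 arrays, but only 9 on Ing1-KO 3. Over all genes tested, between 38.3% and 56.1% lay above their median on any array. The counts were 27, 5 and 23 in WT, 19, 29 and 19 in Gadd45a-KO, and 6, 6 and 16 in DKO, for replicates 1, 2 and 3. Ing1-KO 1 was the highest array for 23 of the 38 genes, against 5.185% of all genes. DKO 2 was the lowest for 17 of the 38, against 20.26% of all genes. The mean deviation of the 38 genes from their 12-array mean was highest on Ing1-KO 1, at 0.38 on the log2 scale, and lowest on DKO 2, at -0.35.

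**Figure D1:**
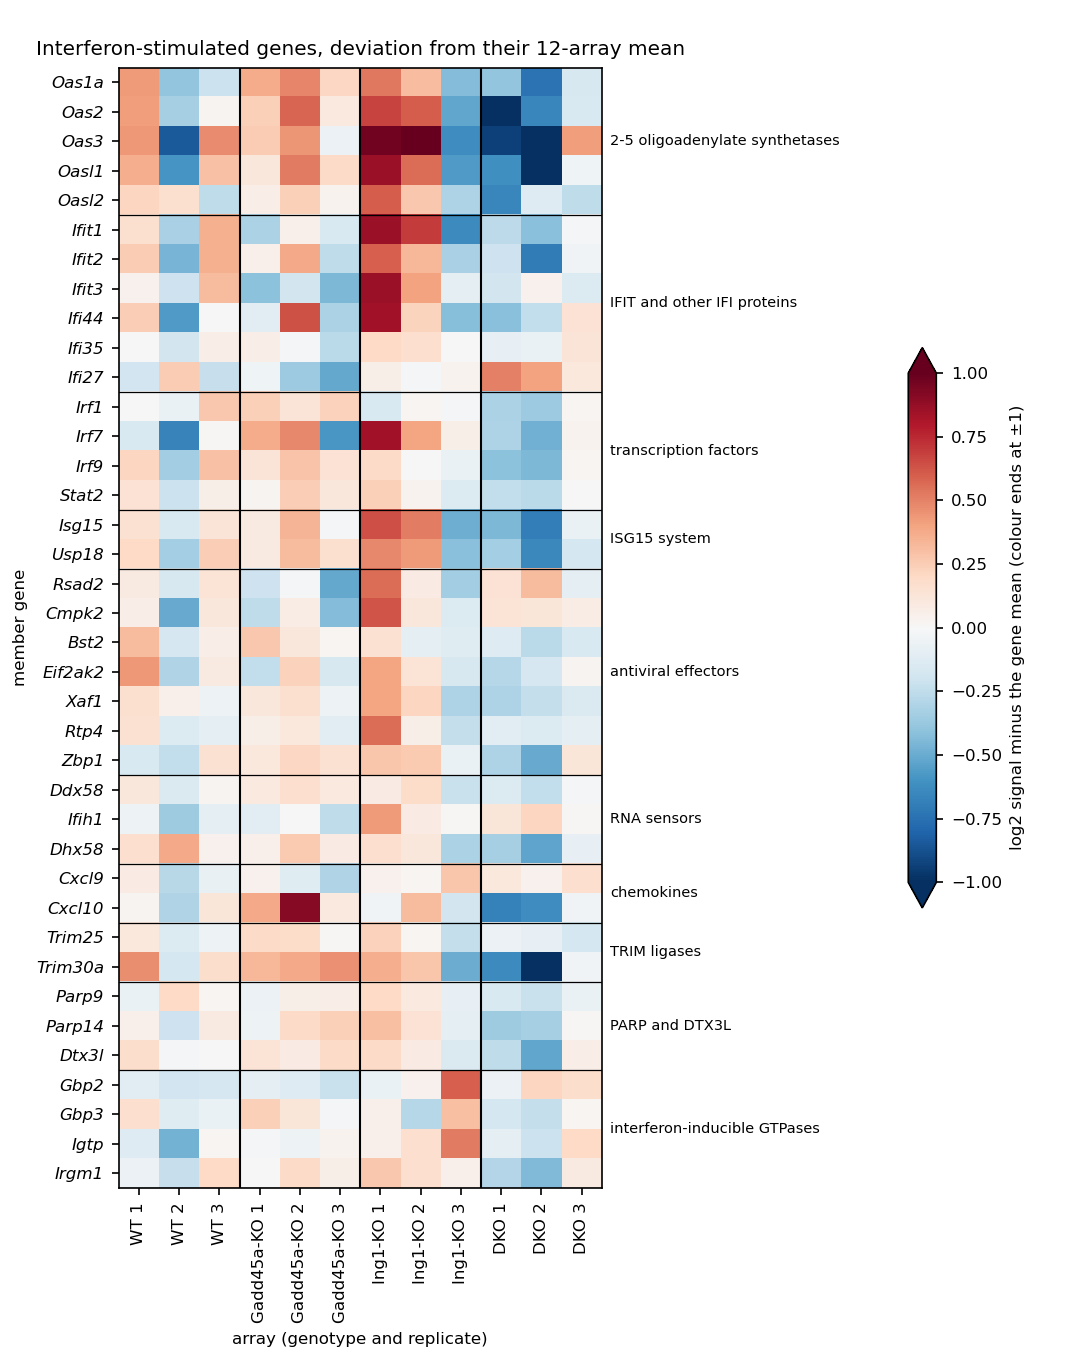
Deviation of each of the 38 measured interferon-stimulated genes (rows, grouped by role) from its own mean over the 12 arrays (columns, by genotype and replicate), as log2 signal. Most genes were high on Ing1-KO 1 and low on DKO 1 and DKO 2, while Ifi27 was high on DKO 1 and DKO 2.

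Most of these genes moved together from array to array. Over the 703 gene pairs the median Pearson r across the 12 arrays was 0.54, and 580 pairs were positive. The arrays are shared by all pairs, so this is a description with no test. Ifi27 stood apart with r = -0.59 against the mean of the other genes, followed by Gbp2 with -0.34, Cxcl9 with -0.04, Igtp with 0.23 and Gbp3 with 0.24. Of these, Gbp2, Gbp3, Cxcl9 and Igtp were highest on Ing1-KO 3, an array on which most of the others were low. The median standard deviation within genotypes was 0.22 for the 38 genes against 0.27 for all genes tested, and it ran from 0.11 for Parp9 to 0.84 for Oas3.

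Outside the list, the 10 of 15153 named genes whose levels followed the mean of the 38 most closely over the 12 arrays were Trim30d (r = 0.91), Phf11c (0.89), Ifi213 (0.89), Ifit1bl1 (0.89), Ifi208 (0.87), Slfn8 (0.86), Hmga2 (0.85), Ifi214 (0.84), Gbp9 (0.84) and Trim30b (0.84). Trim30d and Trim30b are close relatives of the listed Trim30a, and Ifit1bl1 of Ifit1. Whether their probes also catch the listed relative was not tested.

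Against WT, no interferon-stimulated gene passed the threshold in any of the 3 mutants. Values of limma's log2 fold change are given with the standard error, from 3 arrays per genotype, and p was adjusted by Benjamini-Hochberg over all 31454 genes or probes with a threshold of 0.05. The 3 comparisons share the WT arrays. In Gadd45a-KO, 28 of 38 genes had a positive log2 fold change and 10 a negative one, with a median of 0.10, or 0.01 without WT 2. Of all genes tested, 50% were positive and 0% passed in either direction. At an unadjusted p under 0.05, 1 of the 38 genes was higher and 0 lower, against 1.54% and 0.808% of all genes, and plain empirical Bayes gave 0 calls as well. Values of 0 genes lay wholly above or wholly below those of WT, against 5.53% and 2.6% of all genes. In Ing1-KO, 32 genes were positive and 6 negative, with a median of 0.15, where 43.8% of all genes were positive. Here 0% of all genes passed as higher and 0.00318% as lower, and at an unadjusted p under 0.05, 4 of the 38 were higher and 0 lower, against 3.75% and 4.86% of all genes. The median without Ing1-KO 1 was -0.02. In DKO, 9 genes were positive and 29 negative, with a median of -0.20, where 45.3% of all genes were positive. Here 0.0827% of all genes passed as higher and 0.0795% as lower, and 1 of the 38 as higher and 3 as lower had an unadjusted p under 0.05, against 10.2% and 12.8% of all genes.

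**Figure D2:**
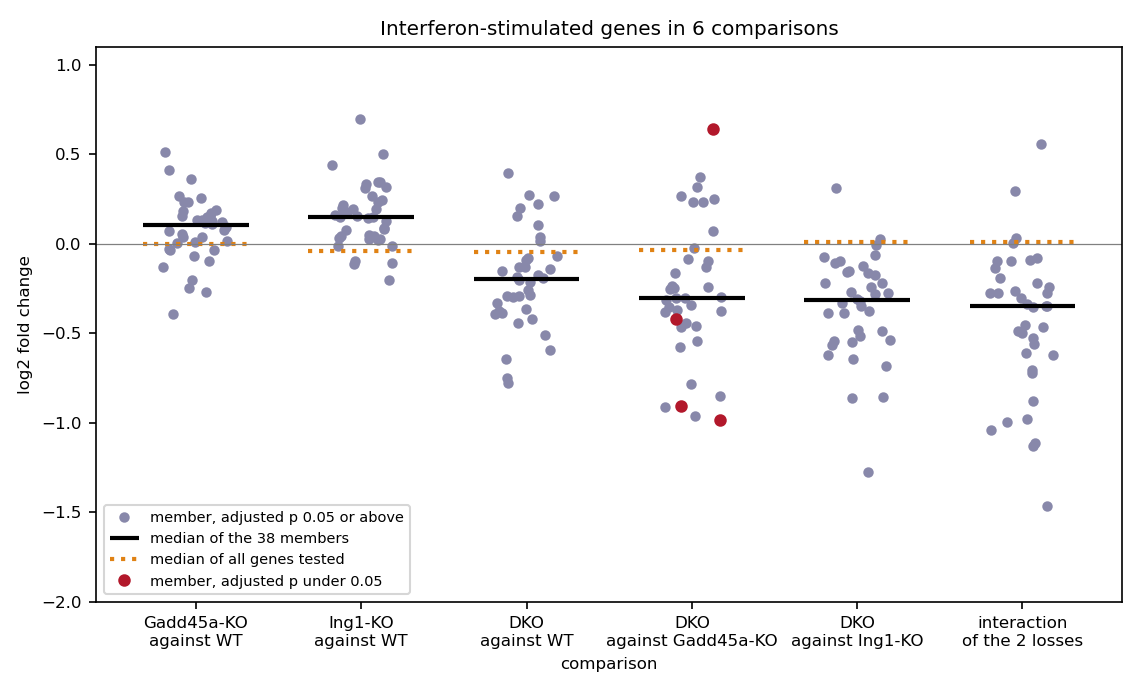
Log2 fold change of the 38 interferon-stimulated genes (points) in the 5 comparisons between genotypes and in the interaction, with their median as a black line, the median of all genes tested as a dotted line and the 4 genes past the threshold in red. The medians were 0.10, 0.15, -0.20, -0.30, -0.31 and -0.35, and the red points all lie in DKO against Gadd45a-KO.

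The median against WT differed between slides. Each of the 3 slides carried 1 array of every genotype, and the replicate number is the slide and the scan in the file headers. Within slides 1, 2 and 3 the median difference of the 38 genes was 0.25, 0.37 and -0.23 in Ing1-KO against WT. For Gadd45a-KO it was -0.07, 0.39 and -0.06, and for DKO it was -0.40, -0.11 and -0.07. The sign was the same on all 3 slides for DKO only, where the median over all genes was also negative, at -0.04, -0.07 and -0.04.

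DKO against Gadd45a-KO was the comparison with calls. Cxcl10, Trim30a and Irf1 were lower and Ifi27 was higher in DKO, 4 of 38 genes in all, and limma's adjusted p lay between 0.0282 and 0.0498. In this comparison 8.47% of all genes passed as lower and 6.49% as higher, so the 3 lower genes of 38 are near the share found among all genes. The median over the 38 genes was -0.30 against -0.03 over all genes, with 30 genes negative and 8 positive, where 47.2% of all genes were positive. At an unadjusted p under 0.05, 14 of the 38 were lower and 1 higher, against 18.6% and 14.3% of all genes. Values of 18 genes lay wholly below and of 4 wholly above those of Gadd45a-KO, against 20.8% and 16.5% of all genes. The count of 4 rested on single arrays. It was 0 without Gadd45a-KO 2, Gadd45a-KO 3, DKO 1 or DKO 2, 2 without Gadd45a-KO 1 and 12 without DKO 3, and the 12 were 11 lower genes and Ifi27. Over all genes the share past the threshold, 14.96% with all arrays, moved too. It was 3.43%, 1.71%, 2.82% and 2.03% without Gadd45a-KO 2, Gadd45a-KO 3, DKO 1 and DKO 2, 10.1% without Gadd45a-KO 1 and 22.5% without DKO 3. The members' count was also 0 with only the 6 arrays compared in the fit (1.60% of all genes), and 0 (1 of all 31454 genes) without the 3 arrays richest in skeletal muscle transcripts, an alternative added once the values were known.

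The 2 chemokines recruit T cells through their shared receptor Cxcr3. Cxcl10 stood at 10.51, 10.18 and 10.60 in WT, 10.86, 11.39 and 10.58 in Gadd45a-KO, 10.45, 10.80 and 10.30 in Ing1-KO, and 9.81, 9.86 and 10.45 in DKO. The DKO values all lay below the Gadd45a-KO values, and DKO 3 lay among the Ing1-KO and WT values. Cxcl10 was 1.87-fold lower in DKO than in Gadd45a-KO, with -0.91 ± 0.23 on the log2 scale (adjusted p = 0.0282 by limma). The difference was -1.05 on slide 1, -1.54 on slide 2 and -0.13 on slide 3. Against WT, Cxcl10 had 0.51 ± 0.23 in Gadd45a-KO with an adjusted p of 0.9997 by limma, and the groups overlapped. Cxcl9 had 0.23 ± 0.13 in DKO against Gadd45a-KO and did not pass.

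**Figure D3:**
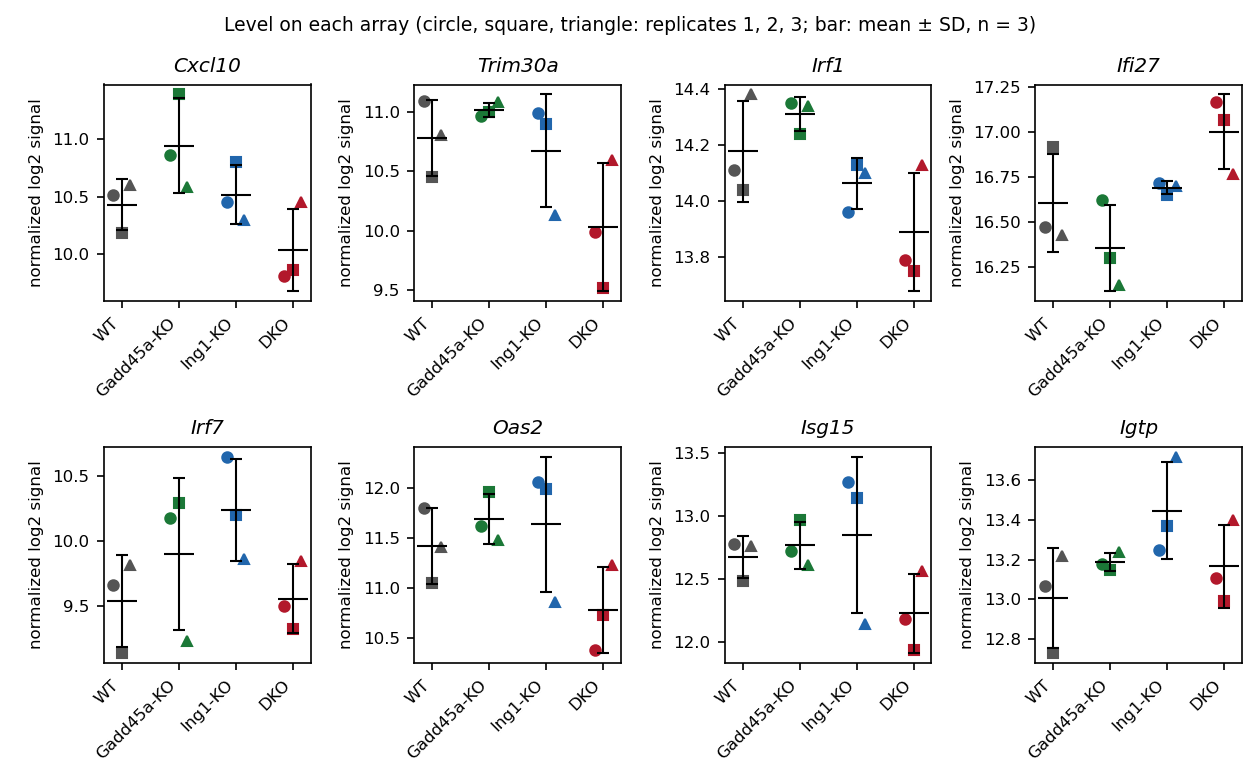
Log2 processed signal, scaled to a common 75th percentile, of Cxcl10, Trim30a, Irf1, Ifi27, Irf7, Oas2, Isg15 and Igtp on each array (circle, square and triangle for replicates 1, 2 and 3), by genotype, with the mean ± SD of 3 arrays in black. The DKO points of Cxcl10, Trim30a and Irf1 lie below and those of Ifi27 above all Gadd45a-KO points.

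Among the TRIM proteins, Trim25, a ubiquitin ligase that acts on the RNA sensor encoded by Ddx58, did not pass, while Trim30a, a related protein that restrains inflammatory signalling, did. Trim30a stood at 11.09, 10.45 and 10.80 in WT, 10.96 to 11.08 on the 3 Gadd45a-KO arrays, 10.99, 10.90 and 10.13 in Ing1-KO, and 9.99, 9.52 and 10.59 in DKO. Gadd45a-KO arrays lay close together and above all DKO arrays. In DKO against Gadd45a-KO, Trim30a was 1.98-fold lower, with -0.98 ± 0.28 and an adjusted p of 0.0365 by limma, and the slides gave -0.98, -1.49 and -0.49. Against WT the value was -0.75 ± 0.28 with an adjusted p of 0.145 by limma. This fell to 0.0337 without DKO 3, where Trim30a had -1.03.

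The transcription factors of the set are Irf1, an early activator induced mainly by interferon gamma, Irf7, which drives type I interferon genes, and Irf9 and Stat2, which form the ISRE-binding complex. Irf1 stood at 14.11, 14.04 and 14.38 in WT, 14.35, 14.24 and 14.34 in Gadd45a-KO, 13.96, 14.13 and 14.10 in Ing1-KO, and 13.79, 13.75 and 14.13 in DKO. Its DKO values lay below the Gadd45a-KO values by a small margin. Irf1 was 1.34-fold lower, with -0.42 ± 0.13 and an adjusted p of 0.0498 by limma, and the slides gave -0.55, -0.49 and -0.21. This call was the least stable of the 4: it remained in 3 of the 12 fits without 1 array, and it was lost without WT 1, any Ing1-KO array, any Gadd45a-KO array, DKO 1 or DKO 2, with adjusted p between 0.0606 and 0.173 by limma. It was lost as well with no filter (0.0756), with the mean over the probes of a gene (0.0504) and with array row as a block (0.0806). In the fit on the mean over probes, Irf1 itself still rested on 1 probe and stayed at -0.42. Its second probe was above background on only 2 arrays and did not pass the filter.

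Irf7 had its highest mean in Ing1-KO, though Gadd45a-KO 1 and Gadd45a-KO 2 lay within the Ing1-KO values. Its values were 9.66, 9.14 and 9.82 in WT, 10.18, 10.29 and 9.23 in Gadd45a-KO, 10.65, 10.20 and 9.86 in Ing1-KO, and 9.50, 9.33 and 9.84 in DKO. All 3 Ing1-KO arrays lay above all WT and all DKO arrays, if only just for Ing1-KO 3. The log2 fold change was 0.70 ± 0.29 in Ing1-KO against WT (adjusted p = 0.573 by limma) and -0.68 ± 0.29 in DKO against Ing1-KO (adjusted p = 0.948 by limma), so neither passed. Irf9 and Stat2 had negative values in DKO against both single mutants and did not pass.

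The oligoadenylate synthetases make the short oligoadenylates that activate RNase L, which cuts viral and cellular RNA. All 5 measured genes of this group had negative fold changes in DKO against WT, Gadd45a-KO and Ing1-KO, with medians of -0.59, -0.85 and -0.86. They were positive in each single mutant against WT, with medians of 0.26 in Gadd45a-KO and 0.22 in Ing1-KO. None passed, and the sign differed between slides. On slide 1 all 5 were negative in Gadd45a-KO against WT, from -0.07 to -0.24. On slide 3 all 5 were negative in Ing1-KO against WT, from -0.06 to -1.09, and positive in DKO against Ing1-KO, from 0.06 to 1.04. Oas2 stood at 11.80, 11.05 and 11.41 in WT, 11.62, 11.96 and 11.48 in Gadd45a-KO, 12.06, 11.99 and 10.86 in Ing1-KO, and 10.38, 10.73 and 11.23 in DKO. Ing1-KO 3 lay more than a log2 unit below the other Ing1-KO arrays and below DKO 3. The log2 fold change of Oas2 was -0.86 ± 0.32 in DKO against Ing1-KO, and the slides gave -1.68, -1.26 and 0.36. Oas3, which had the widest range of all 38 genes, stood at 7.31, 6.03 and 7.35 in WT, 7.13, 7.32 and 6.81 in Gadd45a-KO, 7.84, 8.09 and 6.26 in Ing1-KO, and 5.94, 5.12 and 7.29 in DKO. WT 2, Ing1-KO 3, DKO 1 and DKO 2 were the low arrays of Oas3, so its genotypes overlapped throughout.

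Oas1a was 12.39, 11.57 and 11.75 in WT, 12.33, 12.45 and 12.17 in Gadd45a-KO, 12.49, 12.27 and 11.53 in Ing1-KO, and 11.57, 11.22 and 11.80 in DKO. It was -0.79 ± 0.26 in DKO against Gadd45a-KO, with groups that did not overlap and an adjusted p of 0.0600 by limma, and it passed with the replicate number as a block. Oasl2 was 11.12, 11.06 and 10.65 in WT, 10.97, 11.14 and 10.94 in Gadd45a-KO, 11.51, 11.17 and 10.59 in Ing1-KO, and 10.25, 10.77 and 10.65 in DKO. Again Ing1-KO 3 lay within the DKO values. Oasl1, a relative that represses the translation of Irf7, had -0.86 ± 0.37 in DKO against Ing1-KO and did not pass.

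Of the 6 IFIT and IFI genes, 3 were positive and 3 negative in DKO against Gadd45a-KO, and Ifi27, which encodes a small membrane protein, was the one that passed. It stood at 16.47, 16.92 and 16.43 in WT, 16.62, 16.30 and 16.15 in Gadd45a-KO, 16.72, 16.65 and 16.70 in Ing1-KO, and 17.17, 17.07 and 16.77 in DKO. DKO arrays were above all Gadd45a-KO and all Ing1-KO arrays, but WT 2 reached into their range. In DKO against Gadd45a-KO it was 1.56-fold higher, with 0.64 ± 0.17 and an adjusted p of 0.0291 by limma, and the slides gave 0.55, 0.76 and 0.61. Against WT it had 0.40 ± 0.17 with an adjusted p of 0.184 by limma.

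The IFIT proteins bind viral RNA that lacks the host's cap marks. Ifit1 stood at 9.14, 8.66 and 9.33 in WT, 8.66, 9.02 and 8.82 in Gadd45a-KO, 9.84, 9.68 and 8.34 in Ing1-KO, and 8.71, 8.56 and 8.95 in DKO. Ifit3 stood at 11.82, 11.57 and 12.09 in WT, 11.37, 11.59 and 11.33 in Gadd45a-KO, 12.64, 12.18 and 11.69 in Ing1-KO, and 11.59, 11.82 and 11.64 in DKO. Both were highest on Ing1-KO 1, and Ifit1 was lowest on Ing1-KO 3 of the same genotype. Neither passed in any comparison, and the largest differences in the 5 comparisons were -0.49 ± 0.21 for Ifit3 and -0.54 ± 0.33 for Ifit1, both in DKO against Ing1-KO.

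Isg15 is a ubiquitin-like modifier and Usp18 the enzyme that removes it and dampens the receptor. Isg15, whose promoter held 3 ISRE matches, stood at 12.78, 12.48 and 12.76 in WT, 12.72, 12.97 and 12.61 in Gadd45a-KO, 13.27, 13.14 and 12.14 in Ing1-KO, and 12.18, 11.94 and 12.56 in DKO. The 3 DKO arrays lay below all Gadd45a-KO arrays, and Ing1-KO split into a high pair and a low array. Isg15 had -0.44 ± 0.26 in DKO against WT, with a 95% interval of -1.01 to 0.12, and -0.54 ± 0.26 against Gadd45a-KO. Usp18 had -0.42 ± 0.23 and -0.58 ± 0.23 in these comparisons, and neither gene passed.

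The RNA sensors bind viral double-stranded RNA. Dhx58, which has no signalling domain and tunes the other sensors, stood at 9.63, 9.84 and 9.50 in WT, 9.51, 9.72 and 9.54 in Gadd45a-KO, 9.63, 9.58 and 9.15 in Ing1-KO, and 9.13, 8.93 and 9.38 in DKO. Its DKO values lay below all WT and all Gadd45a-KO values. Dhx58 had -0.51 ± 0.16 in DKO against WT, the smallest p of the 38 genes there, with an adjusted p of 0.112 by limma, and 0.0421 without DKO 3. Ifih1 stood at 10.55, 10.25 and 10.51 in WT, 10.49, 10.60 and 10.35 in Gadd45a-KO, 11.03, 10.68 and 10.61 in Ing1-KO, and 10.72, 10.82 and 10.61 in DKO. Both genotypes without Ing1 lay above WT on all arrays for Ifih1, with 0.33 ± 0.14 in Ing1-KO (adjusted p = 0.569 by limma) and 0.27 ± 0.14 in DKO (adjusted p = 0.251 by limma). Groups that did not overlap and were higher in Ing1-KO numbered 4 of the 38 genes against 7.24% of all genes, with 0 lower against 10.2%, and 2 in DKO against 9.66% of all genes, with 2 genes lower against 12.6%.

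Among the antiviral effectors, Zbp1, a sensor of Z-form nucleic acids, stood at 10.06, 9.97 and 10.37 in WT, 10.32, 10.42 and 10.37 in Gadd45a-KO, 10.49, 10.48 and 10.15 in Ing1-KO, and 9.91, 9.71 and 10.34 in DKO. Cmpk2, a mitochondrial nucleotide kinase, stood at 9.51, 8.93 and 9.55 in WT, 9.19, 9.51 and 9.00 in Gadd45a-KO, 10.07, 9.56 and 9.30 in Ing1-KO, and 9.58, 9.56 and 9.51 in DKO. Neither gene passed in any comparison, and Cmpk2 in DKO lay just above all Gadd45a-KO arrays. The second Cmpk2 probe had the opposite sign to the brighter one, with -0.09 against 0.31 in Ing1-KO and -0.26 against 0.22 in DKO, both against WT. Of the 11 genes with a second probe, 9 had the same sign on both in DKO against WT, and Cmpk2 and Irgm1 did not. In Ing1-KO against WT 8 of the 11 had the same sign on both, and in Gadd45a-KO against WT 5 did and 6 did not. The second probe of Irf1, which is part of these counts, was above background on only 2 arrays, so its sign carries little weight. Rsad2, Bst2, Eif2ak2, Xaf1 and Rtp4 did not pass in any comparison.

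Parp9 and Dtx3l form a ubiquitin ligase complex, and Parp14 attaches ADP-ribose to proteins. Parp14 stood at 12.65, 12.39 and 12.69 in WT, 12.55, 12.79 and 12.84 in Gadd45a-KO, 12.90, 12.74 and 12.51 in Ing1-KO, and 12.24, 12.27 and 12.61 in DKO. Dtx3l stood at 11.54, 11.35 and 11.36 in WT, 11.50, 11.44 and 11.55 in Gadd45a-KO, 11.55, 11.44 and 11.22 in Ing1-KO, and 11.11, 10.84 and 11.43 in DKO. DKO 1 and DKO 2 were the lowest arrays for both genes, and DKO 3 lay among the other genotypes. Against Gadd45a-KO the values were -0.35 ± 0.14 for Parp14 and -0.37 ± 0.14 for Dtx3l, and neither passed.

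The GTPases act on the membranes that enclose microbes. Igtp and Gbp2 had positive values in Ing1-KO against WT that did not pass. Igtp stood at 13.07, 12.73 and 13.22 in WT, 13.18, 13.15 and 13.24 in Gadd45a-KO, 13.25, 13.37 and 13.72 in Ing1-KO, and 13.11, 12.99 and 13.40 in DKO. Gbp2 stood at 12.80, 12.71 and 12.74 in WT, 12.81, 12.78 and 12.68 in Gadd45a-KO, 12.84, 12.95 and 13.50 in Ing1-KO, and 12.85, 13.12 and 13.08 in DKO. All Ing1-KO arrays exceeded all WT arrays for both genes, and Ing1-KO 3 was the highest of the 12. The log2 fold change was 0.44 ± 0.16 for Igtp (adjusted p = 0.556 by limma) and 0.34 ± 0.15 for Gbp2 (adjusted p = 0.577 by limma), and the slides gave 0.18, 0.64 and 0.50 for Igtp and 0.03, 0.24 and 0.76 for Gbp2. Without Ing1-KO 3 the Gbp2 value was 0.14. Irgm1 stood at 12.12, 11.95 and 12.38 in WT, 12.18, 12.37 and 12.24 in Gadd45a-KO, 12.45, 12.35 and 12.23 in Ing1-KO, and 11.89, 11.74 and 12.27 in DKO. DKO 1 and DKO 2 were the lowest arrays of Irgm1, which had -0.38 ± 0.15 in DKO against Ing1-KO and did not pass.

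DKO against Ing1-KO asks what the loss of Gadd45a adds to that of Ing1. Of the 38 genes 36 were negative and 2 positive, with a median of -0.31, while 51.8% of all genes were positive. None passed by limma at an adjusted p of 0.05, where 0.00318% of all genes passed as higher and 0% as lower. At an unadjusted p under 0.05, 13 of the 38 were lower, against 2.08% of all genes, and 0 were higher, against 1.43%. These 13 genes are not independent, since they rise and fall on the same arrays. The median over the 38 genes was -0.22 without Ing1-KO 1, the array richest in muscle transcripts, and -0.43 without Ing1-KO 3. Under the alternatives that left out no single array it ran from -0.35 to -0.18. Groups that did not overlap numbered 2 lower and 1 higher, against 3.75% and 5.14% of all genes. Within slides the median difference was -0.59 on slide 1, -0.44 on slide 2 and 0.14 on slide 3, where 30 of the 38 genes were positive.

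The interaction is the effect of Ing1 loss in mice without Gadd45a less that in mice with it. It was negative for 34 of the 38 genes and positive for 4, with a median of -0.35, where 51.2% of all genes were positive. No gene passed by limma, and 0% of all genes passed in either direction. At an unadjusted p under 0.05, 8 genes were negative and 1 positive, against 3.63% and 2.3% of all genes. The smallest p belonged to Cxcl10 with -0.99 ± 0.33, Oas1a with -0.98 ± 0.37, Zbp1 with -0.62 ± 0.24 and Oas2 with -1.13 ± 0.45, each with an adjusted p of 0.728 by limma. Within slides the median was -0.54, -0.76 and 0.18, so that slide 3 again had the other sign.

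The genes were also split by the ISRE letters, with no test of the difference. In DKO against Ing1-KO the 17 genes with the letters in their window had a median of -0.28 and the 13 with a window and without the letters -0.32. In DKO against Gadd45a-KO the medians were -0.25 and -0.34, and in DKO against WT -0.18 and -0.29. Against WT they were 0.11 and 0.08 in Gadd45a-KO and 0.18 and 0.15 in Ing1-KO, and in the interaction -0.34 and -0.35. No match says only that these letters are not in this window.

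The rest of the interferon pathway was followed through 125 further genes that were tested of 141 listed. In DKO against Gadd45a-KO, 29 of them passed as lower and 1 as higher, against 8.47% and 6.49% of all genes. For these, limma's adjusted p ran up to 0.0496. Of the 125 genes 99 had a negative log2 fold change, where 47.2% of all genes were positive. The feedback inhibitors fell together: Socs3 with -1.03 ± 0.16, Socs1 with -1.02 ± 0.20 and Ptpn2 with -0.48 ± 0.15 were all 3 measured. Socs3 stood at 11.49, 11.08 and 11.57 in WT, 12.12, 11.87 and 12.10 in Gadd45a-KO, 11.33, 11.33 and 11.21 in Ing1-KO, and 10.83, 10.83 and 11.34 in DKO. Its Gadd45a-KO arrays lay above all others. Of the 6 receptor genes, Ifngr2, a chain of the interferon gamma receptor, had -0.40 ± 0.12 and Ifnlr1, of the lambda receptor, -0.84 ± 0.22. Of the 8 signal transducers, the kinases Jak1 and Jak2 had -0.45 ± 0.14 and -0.46 ± 0.12, and the phosphatase Ptpn6 had -0.88 ± 0.25.

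In DNA and RNA sensing, 15 of 19 genes were negative in DKO against Gadd45a-KO, where 47.2% of all genes were positive. Against 8.47% of all genes, 7 of the 19 passed as lower. They were Trex1, a DNase that removes stray DNA, with -0.65 ± 0.11, the DNA sensor Cgas with -0.69 ± 0.13, its partner Sting1 with -0.94 ± 0.19, Samhd1 with -0.76 ± 0.17, Adar with -0.68 ± 0.16, Traf3 with -0.69 ± 0.16 and Aim2 with -1.04 ± 0.26. Sting1 stood at 13.20, 13.04 and 13.25 in WT, 13.40, 13.37 and 13.42 in Gadd45a-KO, 12.61, 12.91 and 12.83 in Ing1-KO, and 12.51, 11.95 and 12.90 in DKO. The 6 arrays without Ing1 lay below the 6 with it. Of the other interferon regulatory factors, Irf8, a factor of myeloid cells, had -0.99 ± 0.21, and 1 of 6 passed.

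Of the 72 further interferon-induced genes, 55 were negative in DKO against Gadd45a-KO, where 47.2% of all genes were positive. As lower, 13 of the 72 passed, against 8.47% of all genes. Ifi27l2b, with 1.04 ± 0.32, passed as higher. The chemokine Ccl12 had the largest of these falls, at -1.74 ± 0.15 with an adjusted p of 0.00101 by limma. It stood at 9.80, 9.78 and 9.90 in WT, 10.87, 10.66 and 10.64 in Gadd45a-KO, 9.30, 9.51 and 9.71 in Ing1-KO, and 8.85, 8.83 and 9.28 in DKO. The genotypes of Ccl12 did not overlap at all, in the order Gadd45a-KO, WT, Ing1-KO and DKO. The others that passed as lower were Ifitm1 (-1.15 ± 0.26), Ccl5 (-1.25 ± 0.30), Apol9b (-0.62 ± 0.14), Sp100 (-0.58 ± 0.16), Psmb9 (-0.43 ± 0.12) and Psmb10 (-0.37 ± 0.11). Stat4, Epsti1, Slfn2, Nmi, Phf11b and Tor3a passed as lower too. None of the 11 interferon ligand genes passed, and Ifng lay between 6.81 and 7.66 over the 12 arrays.

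The count of 30 pathway genes moved with single arrays. It was 15 without Gadd45a-KO 1, 7 without Gadd45a-KO 2, 4 without Gadd45a-KO 3, 7 without DKO 1, 5 without DKO 2 and 52 without DKO 3. In the other comparisons no pathway gene passed by limma. Against WT the smallest p belonged in Gadd45a-KO to Ccl12 (0.90 ± 0.15), Socs3 (0.65 ± 0.16) and Trex1 (0.29 ± 0.11), in Ing1-KO to Ifi211 (0.45 ± 0.17), Irgm2 (0.38 ± 0.15) and Parp12 (0.37 ± 0.15), and in DKO to Ccl12 (-0.84 ± 0.15), Sp100 (-0.61 ± 0.16) and Sting1 (-0.71 ± 0.19). In DKO against Ing1-KO they were Herc6 (-1.06 ± 0.28), Ccl12 (-0.52 ± 0.15) and Apol9b (-0.38 ± 0.14), and in the interaction Ccl12 (-1.42 ± 0.21), Socs3 (-0.94 ± 0.23) and Cgas (-0.59 ± 0.19). At an unadjusted p under 0.05 the counts of these 125 genes as higher and lower were 5 and 0 in Gadd45a-KO, 4 and 0 in Ing1-KO, 1 and 30 in DKO, 1 and 14 in DKO against Ing1-KO, and 0 and 16 in the interaction. The shares of all genes were 1.54% and 0.808%, 3.75% and 4.86%, 10.2% and 12.8%, 1.43% and 2.08%, and 2.3% and 3.63%. Without DKO 3, 22 pathway genes passed in DKO against WT, where 10.5% of all genes did, and 1 passed without WT 2 (3.79% of all genes) or Gadd45a-KO 3 (0.744%).

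Markers of immune cells and most interferon-stimulated genes were negative in DKO against Gadd45a-KO, while in Ing1-KO against WT they differed. In DKO against Gadd45a-KO, 11 of 12 T cell markers passed the threshold as lower, with a median of -1.14 over the list. So did 5 of 10 for NK cells, 2 of 8 for B cells and 6 of 13 for macrophages. Among neutrophil markers 7 of 10 passed as lower, with a median of -3.23, as did 2 of 5 for plasmacytoid dendritic cells. Of the adipocyte markers 6 of 12 passed as higher, with a median of 0.76. Passing or not, all markers of these immune lists were negative except 1 of 13 for macrophages. All 12 adipocyte markers were positive. Of all genes 8.47% passed as lower and 6.49% as higher there, and 1 of 31454 passed without the 3 muscle-rich arrays. Against WT the neutrophil markers had a median of 2.40 in Gadd45a-KO and -0.59 in DKO, and none of them passed. Their mean deviation was 2.93, 1.87 and 0.69 on Gadd45a-KO 1, 2 and 3, and 0.32, -0.06 and -0.92 on WT 1, 2 and 3. In Ing1-KO against WT, 32 of the 38 interferon-stimulated genes were positive, while all 12 T cell and all 10 NK cell markers were negative. None of these genes or markers passed there, and 43.8% of all genes were positive. The median of the 38 genes was 0.15, or -0.02 without Ing1-KO 1, and on slide 3 only 7 of the 38 were positive. The T cell and NK cell lists each had a median of -0.42 in Ing1-KO against WT. The summed T cell marker signal, on the log2 scale, was 16.39 to 16.88 in WT, 16.70 to 17.05 in Gadd45a-KO, 15.95 to 16.58 in Ing1-KO and 15.02 to 16.34 in DKO. In whole tissue, fewer cells of a type and less RNA per cell cannot be told apart. For macrophages the sums were 15.90 to 16.34, 16.27 to 16.44, 15.80 to 15.88 and 15.59 to 15.86. The part of these cells in the lower interferon-stimulated genes was not tested.

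Skeletal muscle transcripts marked 3 arrays. Their mean deviation was 3.78 on Ing1-KO 1, 2.29 on DKO 1 and 1.22 on Gadd45a-KO 1, and between -0.42 and -0.996 on the other 9. Ing1-KO 1 was also the array on which 23 interferon-stimulated genes were highest, and DKO 1 one on which they were low. Without these 3 arrays the values in DKO against Gadd45a-KO were -0.83 for Cxcl10, -0.99 for Trim30a, -0.35 for Irf1 and 0.69 for Ifi27, and none passed. The part of muscle tissue in the values was not tested.

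**Figure D4:**
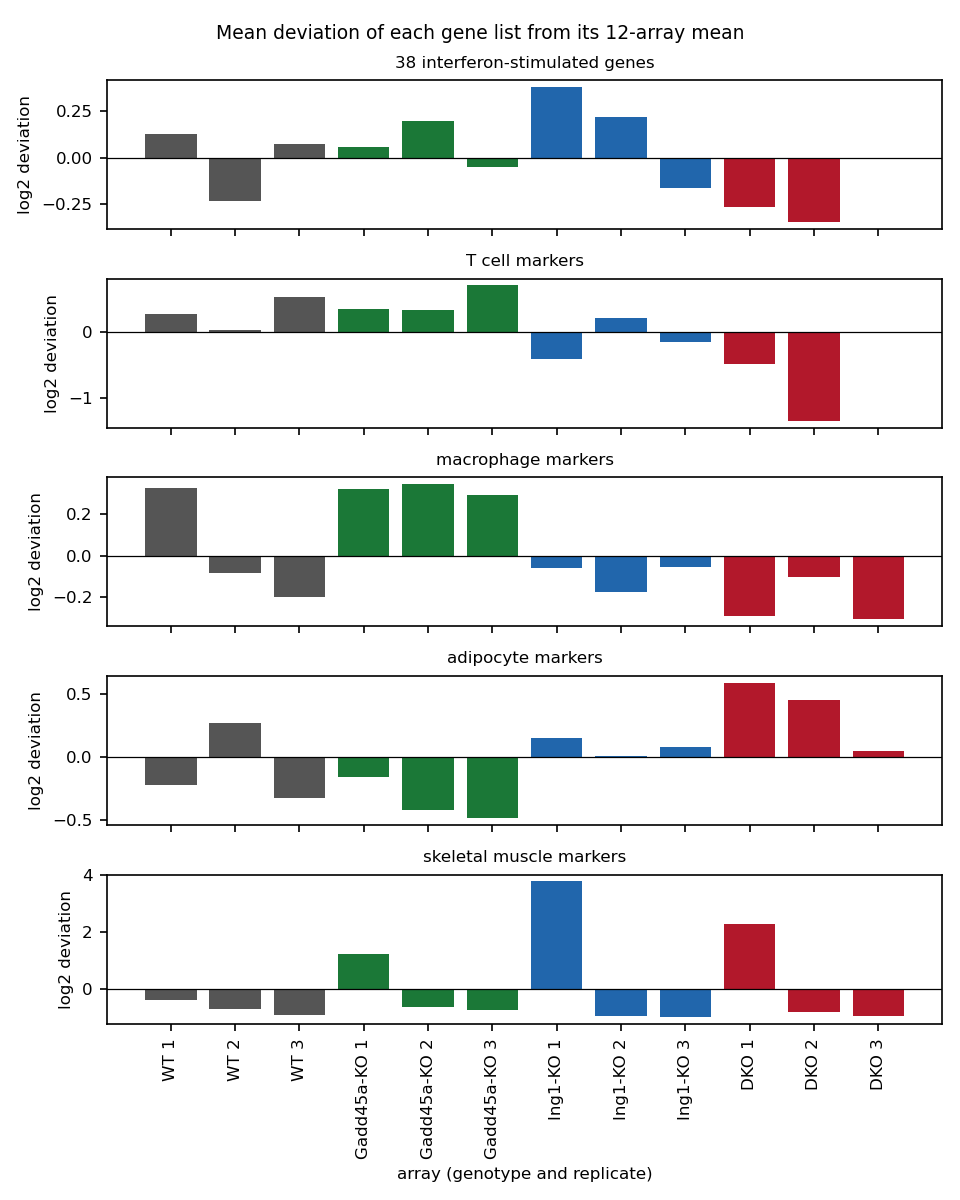
Mean deviation from the 12-array mean, as log2 signal, of the 38 interferon-stimulated genes and of marker lists of T cells, macrophages, adipocytes and skeletal muscle on each array (bars from 0, coloured by genotype, vertical scales differing between panels). The interferon-stimulated genes peak on Ing1-KO 1 at 0.38 and are lowest on DKO 2 at -0.35, and the muscle list peaks on Ing1-KO 1 at 3.78.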

How the data were processed

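Total RNA of gonadal fat, pooled from 3 animals per array, went onto 12 one-colour (Cy3) arrays on 3 slides. Scanner files deposited by the authors give spot intensity after background subtraction by Feature Extraction 10.7.3.1, per the file headers. The authors' deposited table is in log2 units and was made with limma 3.26.9, per the submitters' processing notes, and other steps are not given in the sources used here. It served only as an alternative.

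Marked spots were left out, spots of a probe averaged on the log2 scale and arrays shifted to a common 75th percentile. Of 55681 probes, 27509 were named through RefSeq accessions of GRCm38.p6. Probes well above background on 3 or more arrays were kept, and the brightest probe stood for a gene. Models with 4 genotype means and 8 residual degrees of freedom were fitted in limma 3.58.1 (R 4.3.3) with an intensity trend and robust moderation. Tests are two-sided. The number of arrays limits the precision, and an exact test of 3 against 3 arrays cannot go below 0.1. The labels state that replicates are pools of different animals. The fit was tested on simulated data.

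Alternatives were other normalizations and filters, the authors' values, plain empirical Bayes, the arrays compared alone, slide and array row as blocks, and each array left out. Genes named with array values were those past the threshold, the 4 with the smallest p in each comparison and the widest-ranging gene of each role group. Other pathway genes named were those past the threshold, the 3 with the smallest p in each comparison, and 1 gene of the rule is not reported here. The members and lists were chosen with earlier results of these data known. Adipoq, Ifng, Usp18, Oasl1 and Cxcl9 were given values outside this rule, after those were seen.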

Additional observations from a re-analysis of the deposited data

How the results depend on the processing

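None of the 4 interferon-stimulated genes past the threshold changed sign under any alternative run, and the median in Ing1-KO against WT, 0.15, was -0.02 without Ing1-KO 1 and without the 3 muscle-rich arrays. The count of interferon-stimulated genes past the threshold in DKO against Gadd45a-KO, 4, was 2 with centring on the median, 2 with plain empirical Bayes, 0 with only the arrays compared, 0 without the 3 muscle-rich arrays, 3 with no filter, the mean over probes or array row as a block, and 0 to 12 with single arrays left out. The 30 further pathway genes there became 19 with no filter, 19 with plain empirical Bayes, 2 with only the arrays compared, 0 without the 3 muscle-rich arrays, and 4 to 52 with single arrays left out. In DKO against WT their count of 0 became 1 with quantile normalization, 1 with normexp, 1 with the filter on all 12 arrays and 2 with the replicate block, and 0 to 22 with single arrays left out, and the members' count of 0 became 0 to 2. Centring on the median gave 2507 genes higher and 1739 lower in DKO against Gadd45a-KO, against 2040 and 2664. With the replicate number, which is the slide, as a block, 5 interferon-stimulated genes (Oas1a added) and 34 pathway genes passed in DKO against Gadd45a-KO. Deviations from the genotype mean were also correlated between arrays over all genes. In 9 of 18 pairs of same-numbered arrays r was over 0.1 (range -0.28 to 0.42). The interaction with only the arrays compared was not run, since it uses all 12. All 38 genes were above background on every array.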
